A study of Mus musculus with 12 samples.

Results

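The endoplasmic reticulum (ER) genes described here are 37 mouse genes for folding proteins in the ER lumen, for sensing and clearing misfolded protein, for moving new chains across the ER membrane and for carrying cargo from the ER to the Golgi. They were listed by symbol for their function, by a rule that uses no measured value, although earlier results of these data were known when the list was made, and all 37 were found among the 48321 genes of the table. By role they are 9 chaperones and co-chaperones (Hspa5, Hsp90b1, Dnajb9, Dnajb11, Dnajc3, Sdf2l1, Manf, Creld2 and Hyou1), 6 lectin chaperones and disulfide isomerases (Calr, Canx, Pdia3, Pdia4, Pdia6 and P4hb), 3 stress regulators (Ern1, Atf6 and Xbp1), 7 genes of ER-associated degradation (Herpud1, Sel1l, Syvn1, Edem1, Derl1, Derl2 and Derl3), 7 translocon genes (Sec61a1, Sec61b, Sec61g, Ssr1, Ssr2, Ssr3 and Ssr4) and 5 genes of export and retrieval (Sec23a, Sec24d, Mia3, Kdelr2 and Kdelr3).

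Brown preadipocytes from a WT newborn mouse were immortalized in culture by transduction with SV40 large T antigen, and RNA-seq was done after differentiation. The cells were stably transduced with lentivirus holding the empty pLEX vector or pLEX with a truncated, Flag-tagged mouse Sema4B (tSema4B), which mimics the form released when the protease ADAM17 cuts this membrane semaphorin. Both lines were selected with puromycin, taken through the same differentiation with 3-isobutyl methylxanthine, rosiglitazone, dexamethasone, insulin and triiodothyronine to day 8, and then kept for 6 h in serum-free medium with albumin, either unstimulated or with 2 μM norepinephrine (NE), the transmitter that activates brown fat through beta-adrenergic receptors. The 4 groups had 3 libraries each, 12 in all. One line stood for each construct, so the construct and the line cannot be told apart. In the series design text the libraries are described as technical replicates, and the p-values below measure the spread between libraries only.

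Secreted and membrane proteins enter the ER through the Sec61 channel and fold there with the help of the Hsp70-type chaperone BiP (Hspa5), its partners, the lectins calnexin and calreticulin, and disulfide isomerases. When unfolded protein builds up, the membrane sensors IRE1 (Ern1), ATF6 and PERK raise the production of folding and degradation factors. IRE1 does so by splicing the mRNA of the transcription factor XBP1. Folded cargo leaves in vesicles coated by COPII proteins, and ER residents that escape are carried back by KDEL receptors. Adipocytes and fibroblasts both secrete in bulk, adipocytes mainly adipokines and lipoprotein lipase, fibroblasts mainly collagen.

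Read depth ranged from 2000780 to 5409583 reads on genes per library, and it was highest in the vector line with NE. Values are normalized counts, reads divided by the size factor of the library. Sema4b ranged from 110786 to 124008 in unstimulated vector cells and 258257 to 316850 in unstimulated tSema4B cells (medians 115596 and 269434), and with NE from 65472 to 81754 and 208760 to 270694 (medians 75571 and 223375), construct and endogenous reads not told apart. It was thus very abundant in the empty-vector line too, above the adipocyte marker Fabp4, whose means there were 24034 unstimulated and 40898 with NE, and the comparisons of the lines set a higher against a lower Sema4b read count, not presence against absence. The summed level of 8 adipocyte markers was 40072 to 45677 in unstimulated vector cells and 6652 to 9438 in unstimulated tSema4B cells, and with NE 53448 to 64907 and 10545 to 11929. All 8 were lower in the tSema4B line in both conditions, and Ucp1 had no read in unstimulated tSema4B cells. The summed level of 8 preadipocyte and fibroblast markers was 15920 to 16640 against 29892 to 33912 unstimulated, and 13019 to 15211 against 28002 to 29688 with NE, with 6 and 7 of the 8 called higher. Of 6 macrophage markers, summed at 0 to 24.6, Ptprc and Adgre1 had no read, and of 5 endothelial markers, summed at 4.34 to 21.9, Kdr had none. These shifts go with the construct in every comparison of the lines below, and their part in those results was not tested. In bulk RNA, fewer cells of a type and less RNA per cell cannot be told apart.

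Of the 37 genes, 36 passed the filter of at least 10 normalized counts in at least 3 libraries, together with 11998 genes in all. Derl3, a derlin of secretory tissues, did not, with at most 4 reads in a library and none in the tSema4B line. The text calls a gene higher or lower where limma gave an adjusted p of 0.05 or less over all genes tested. Each of the 36 tested members differed by less than 2-fold in every comparison, and none passed the second threshold, a change of 1 on the log2 scale, by limma, edgeR or DESeq2.

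Per kilobase of merged exon the members spanned a wide range. P4hb, a disulfide isomerase and collagen hydroxylase subunit, led with a mean of 1110 normalized counts per kilobase over 12 libraries (range 968 to 1330). Calr followed at 830, then the translocon-associated subunit Ssr3 at 713, Pdia3 at 703 and Hspa5 at 638. The ranges of these last 4 over the libraries overlapped, from 564 at the lowest to 984 at the highest. The sensors were near the bottom of the order, Atf6 at 17.4 and Ern1 at 8.35 normalized counts per kilobase (range 4.97 to 14), above only Derl3 at 0.315. Together the 37 genes held 29060 ± 268 normalized counts in unstimulated vector cells, 30811 ± 1008 in unstimulated tSema4B cells, 31383 ± 941 in vector cells with NE and 34100 ± 249 in tSema4B cells with NE (SD, n = 3).

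The first question was which of these genes differed between the tSema4B and the vector line. Unstimulated, 4 of 36 were higher and 2 lower in the tSema4B line (limma), where 5.64% of all genes tested were higher and 7.39% lower and 3.82% passed both thresholds. With NE, 6 were higher and 3 lower, against 9.79% and 11.2% of all genes, with 5.76% past both thresholds. The median log2 difference of the members was 0.04 and 0.03, against 0.00 and -0.01 for all genes tested. With the same total over nuclear genes it was -0.05 and -0.02, against -0.088 and -0.061 for all genes. With the same total over all genes it was 0.06 and 0.12, against 0.022 and 0.083. The shares of the members called higher, 11.1% and 16.7%, lay a little above those of all genes, and the shares called lower, 5.56% and 8.33%, a little below. Of all calls, 43.3% were on the higher side unstimulated and 46.7% with NE. Scaling the libraries to the same total over nuclear genes moved these to 27.8% (members 2 higher, 3 lower) and 38.2% (members 6 higher, 6 lower). Scaling to the same total over all genes moved them to 48.8% (members 6 higher, 1 lower) and 61.6% (members 11 higher, 1 lower). By role, 3 and 4 of the calls on the higher side were genes of export and retrieval, and the calls on the lower side were single genes of other roles, Xbp1 and Derl1 in both conditions and Ssr4 with NE. No test compared the roles with each other.

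**Figure D1:**
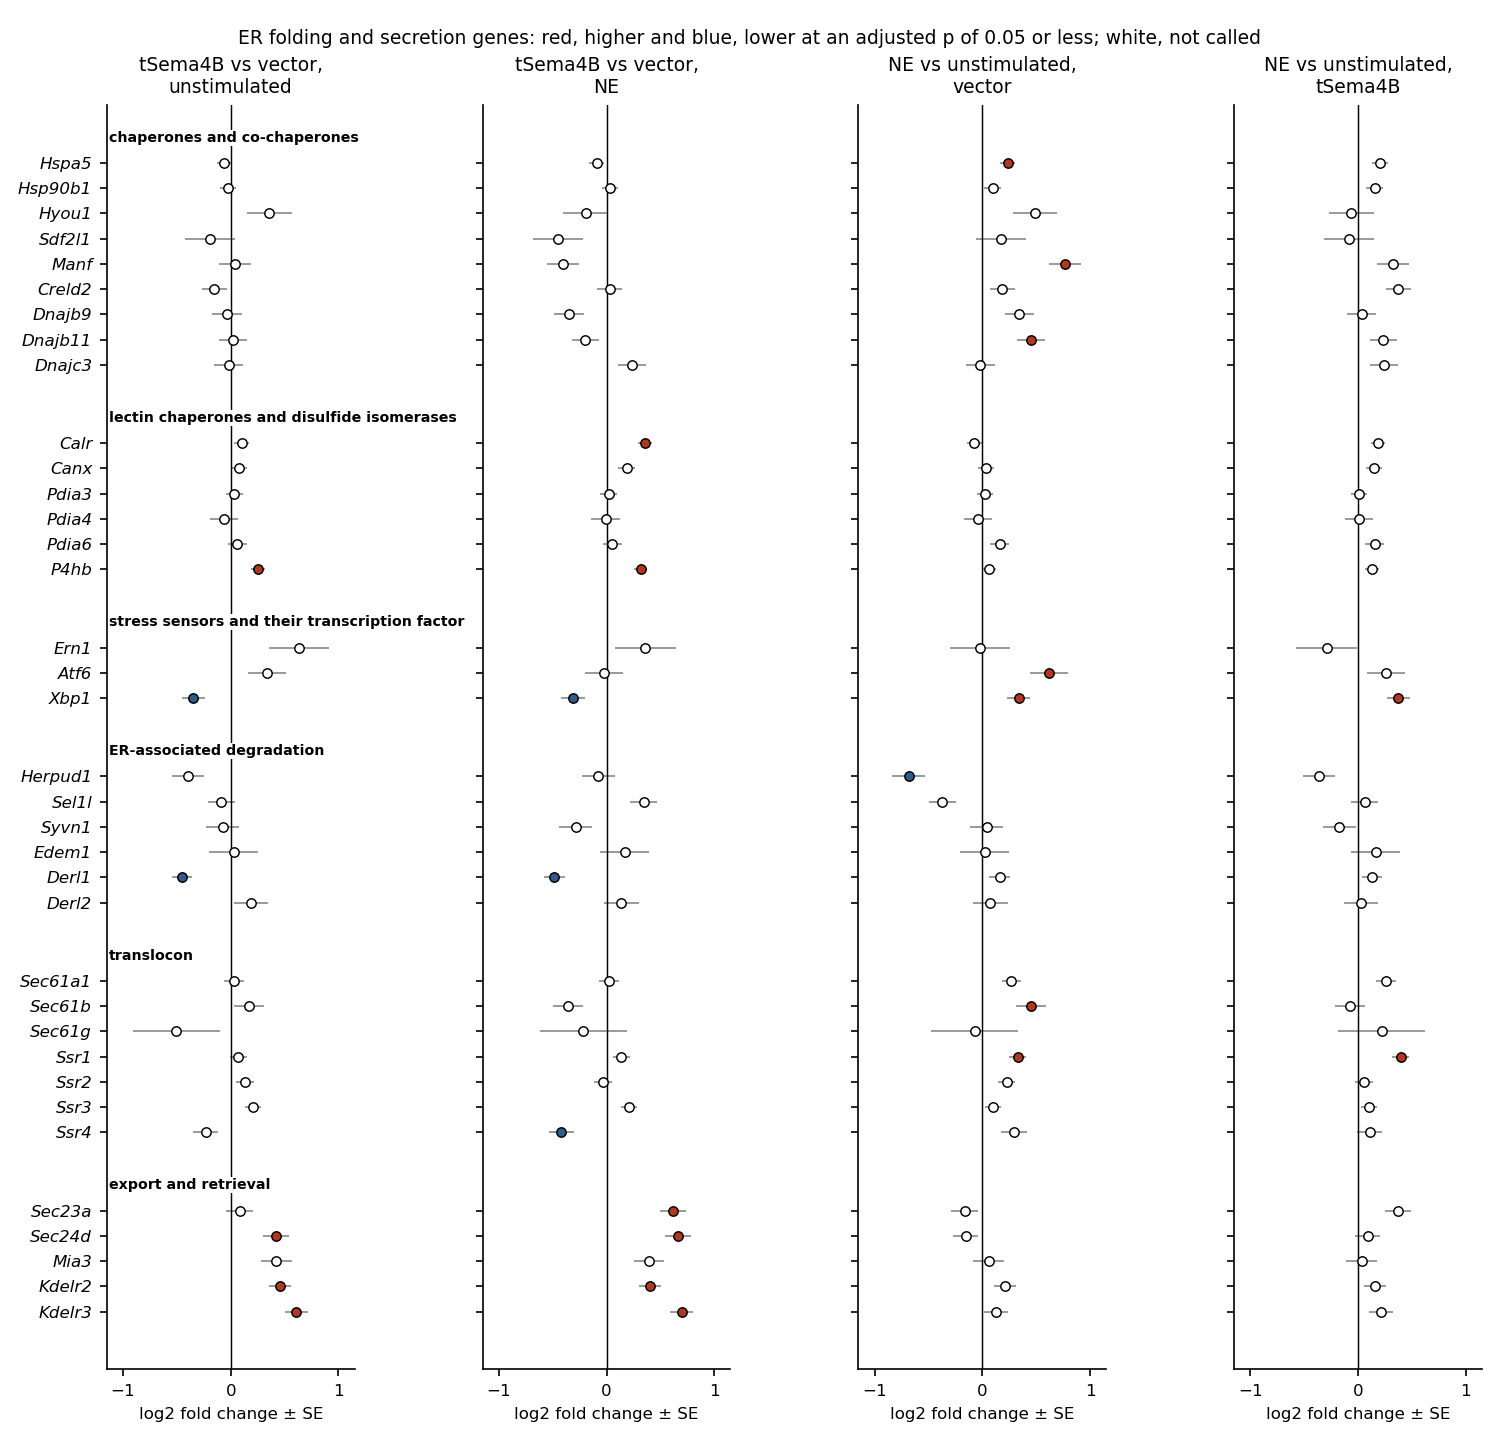
Log2 fold change (horizontal axis, normalized count + 1) of the 36 tested members, by role, in 4 comparisons, with the standard error of the limma fit as bars and red or blue for genes called higher or lower. Export and retrieval genes lie to the right in both comparisons of the lines, where 3 and 4 of 5 are called (5.64% and 9.79% of all genes are higher). NE in the vector line has 8 calls, where 6.82% of all genes rose and 4.78% fell. The tSema4B line has 2, where 3.68% rose and 2.58% fell, and the interaction was called for 0 members.

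Export and retrieval was the role with the most calls between the lines. Of its 5 genes, 3 were higher unstimulated and 4 with NE in the tSema4B line. These were 60% and 80%, against 5.64% and 9.79% of all genes tested. All 5 had a positive log2 difference in both conditions, and the role's median log2 difference was 0.42 and 0.62. Kdelr3 encodes a KDEL receptor, which returns escaped chaperones from the Golgi (chr15:79516411-79527739, GRCm38). It read 357, 351 and 374 normalized counts in unstimulated vector cells and 586, 585 and 487 in unstimulated tSema4B cells. With NE it read 366, 424 and 394 in the vector line and 706, 591 and 626 in the tSema4B line. The highest vector value, 424, was below the lowest tSema4B value, 487. The difference was 1.53-fold unstimulated (log2 0.61 ± 0.11 SE, adjusted p = 4.84e-04) and 1.62-fold with NE (0.70 ± 0.11, adjusted p = 8.64e-05).

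The related receptor Kdelr2 (chr5:143403838-143421901) read 905, 820 and 923 in unstimulated vector cells against 1167, 1262 and 1201 in unstimulated tSema4B cells. With NE its values were 1028, 872 and 1180 against 1520, 1261 and 1282. The groups did not overlap in either condition, and the difference was 1.37-fold (log2 0.46 ± 0.103, adjusted p = 0.00396) and 1.32-fold (0.40 ± 0.103, adjusted p = 0.00696). The second call was lost without vector NE replicate 2 (log2 0.29, adjusted p = 0.0625).

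Among the COPII genes, Sec24d encodes an inner coat subunit that selects cargo (chr3:123267455-123365641). Unstimulated it read 647, 640 and 741 in the vector line and 793, 1166 and 798 in the tSema4B line, where replicate 2 stood well above the others. With NE the values were 581, 635 and 603 against 963, 960 and 958, with almost no spread in the tSema4B line. Sec24d was 1.34-fold higher unstimulated (log2 0.42 ± 0.118, adjusted p = 0.0195) and 1.58-fold higher with NE (0.66 ± 0.118, adjusted p = 3.27e-04). The unstimulated call was lost in 5 of 18 alternatives, without tSema4B unstimulated replicate 2 (log2 0.24, adjusted p = 0.138), without vector unstimulated replicate 1 (0.39, 0.0804) or replicate 2 (0.38, 0.0864), with no filter (0.42, 0.0506) and with the same total over nuclear genes (0.33, 0.0558).

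Sec23a, the partner of the Sec24 proteins in the inner coat (chr12:58958383-59012017), was called with NE. It read 589, 594 and 632 in the vector line and 1029, 876 and 885 in the tSema4B line, 1.53-fold higher (log2 0.62 ± 0.122, adjusted p = 9.02e-04), with no overlap. Unstimulated, 708, 648 and 680 stood against 661, 927 and 604 (log2 0.08, adjusted p = 0.73), and the groups overlapped. Sec23a shares 431 exon bases with Gm17529 on the opposite strand, and how strand was counted is not given in the sources used here. The fifth gene, Mia3, encodes TANGO1, which loads bulky cargo such as collagen into COPII carriers. It had means of 214 ± 23.5 and 289 ± 47.4 unstimulated and 223 ± 17.9 and 294 ± 30.9 with NE (SD, n = 3), without overlap, at log2 0.42 and 0.40 and adjusted p values of 0.0551 and 0.0531. The count models called Mia3 with NE, edgeR and DESeq2 alike, and DESeq2 also unstimulated.

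**Figure D2:**
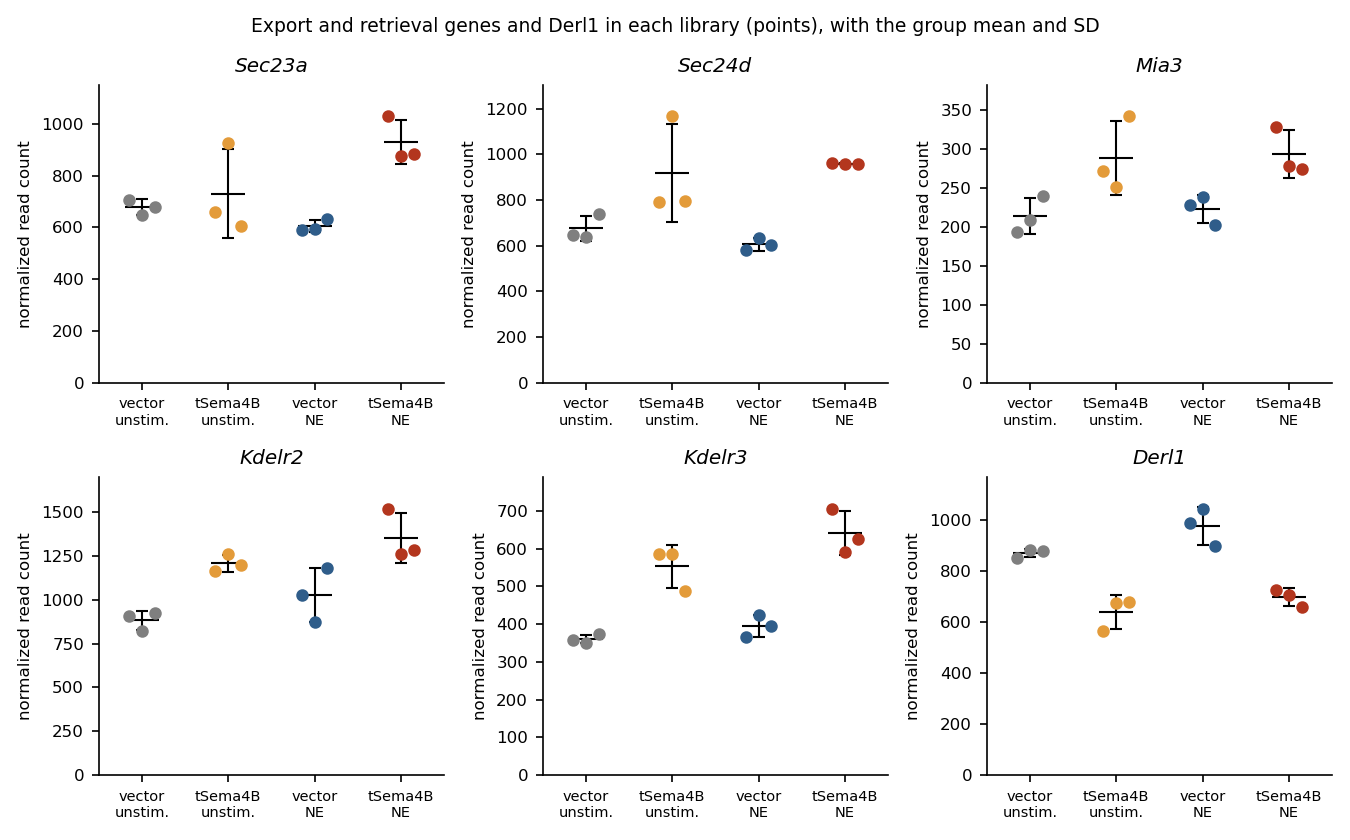
Normalized counts (vertical axes, from 0) of Sec23a, Sec24d, Mia3, Kdelr2, Kdelr3 and Derl1 in each of the 12 libraries by group, with bars at the group means. The tSema4B libraries of Kdelr3, Kdelr2, Sec24d and Mia3 lie above the vector libraries of the same condition, those of Derl1 lie below, and Sec23a separates with NE only.

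The promoters of Kdelr3, Sec24d and Sec23a are shown because each holds the letters TGACGTGG, known as the unfolded protein response element, which XBP1 and ATF6 can bind. The capitals mark it, on the opposite strand in Kdelr3, where it reads as its reverse complement, and the windows are chr15:79516298-79516415 (plus strand), chr3:123267390-123267507 (plus) and chr12:59011998-59012091 (minus), in RefSeq GRCm38.p6:
Kdelr3: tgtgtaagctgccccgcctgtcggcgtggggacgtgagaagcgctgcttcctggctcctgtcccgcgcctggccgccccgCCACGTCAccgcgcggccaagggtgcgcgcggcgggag
Sec24d: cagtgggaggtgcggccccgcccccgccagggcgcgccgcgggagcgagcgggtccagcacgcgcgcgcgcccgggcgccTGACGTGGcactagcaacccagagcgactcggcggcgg
Sec23a: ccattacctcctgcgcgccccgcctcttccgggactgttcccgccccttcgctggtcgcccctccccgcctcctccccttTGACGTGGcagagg

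The first base of the element lay at -30, -26 and 6 from the annotated start. Searched on both strands in windows of 300 bases (250 before to 50 after the start), it was in 3 of the 31 windows of members and in 222 of 32851 windows in all (0.676%). The 3 are all from export and retrieval, which had 4 genes with a window. This element was searched after values had been seen. A match of letters is a description of the window and does not show that a factor binds there.

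The lectin chaperones and disulfide isomerases had 1 call unstimulated and 2 with NE, all higher in the tSema4B line. These were 16.7% and 33.3% of the 6 genes, against 5.64% and 9.79% of all genes tested. P4hb read 2780, 2770 and 2827 in unstimulated vector cells and 3375, 3231 and 3373 in unstimulated tSema4B cells, 1.19-fold higher (log2 0.25 ± 0.0635, adjusted p = 0.00946). With NE it read 2854, 2920 and 2976 against 3505, 3591 and 3800, 1.24-fold higher (0.32 ± 0.0635, adjusted p = 0.00103). The groups were far apart for the small spread of this gene, although the unstimulated call was lost when libraries were scaled to the same total over nuclear genes (0.16, adjusted p = 0.0924). Calr, the calcium-binding lectin calreticulin (chr8:84841850-84846934), read 2031, 2169 and 2227 in the vector line with NE and 2655, 2751 and 2833 in the tSema4B line with NE. That is a 1.28-fold difference (log2 0.36 ± 0.0679, adjusted p = 5.84e-04). Unstimulated, its values of 2172, 2289 and 2308 against 2431, 2402 and 2421 gave log2 0.10 (adjusted p = 0.378). Calr has an annotated pseudogene, Calr-ps, and how reads with several matches were treated is not given in the sources used here. The other 4 genes, Canx, Pdia3, Pdia4 and Pdia6, had log2 differences from -0.06 to 0.19 in these comparisons and were not called by limma, while DESeq2 also called Canx with NE.

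The 9 chaperones and co-chaperones gave no call between the lines by limma in either condition. Unstimulated, none had an unadjusted p under 0.05 and edgeR and DESeq2 called none. With NE, Dnajb9 and Manf had one, and both count models called Manf lower in the tSema4B line. Of all 11998 genes, 3137 had an unadjusted p under 0.05 (limma) unstimulated and 3945 with NE. Hspa5 read 2487, 2753 and 2402 against 2384, 2525 and 2411 unstimulated (log2 -0.06, adjusted p = 0.653), and Hsp90b1, the Hsp90 of the ER, had means of 2340 ± 52.8 and 2303 ± 200 (log2 -0.03). The role's log2 differences ranged from -0.20 to 0.36 unstimulated and from -0.45 to 0.24 with NE.

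Of the regulators, Xbp1 was lower in the tSema4B line and the sensors were not called. Xbp1 (chr11:5520659-5525893) read 614, 542 and 528 in unstimulated vector cells and 476, 418 and 429 in unstimulated tSema4B cells, 0.786-fold (log2 -0.35 ± 0.107, adjusted p = 0.0335). With NE it read 660, 697 and 771 against 616, 509 and 592, 0.806-fold (-0.31 ± 0.107, adjusted p = 0.0422). The groups did not overlap, but each call was lost in 7 of 18 alternative fits, with adjusted p up to 0.166 and 0.187. These include the fits without vector unstimulated replicate 1 or 2 or tSema4B unstimulated replicate 2 or 3, and with NE those without replicate 2 or 3 of either line. Counts per gene do not tell spliced from unspliced Xbp1 mRNA. Ern1 read 55.4, 63.9 and 47.9 in unstimulated vector cells and 64.4, 114 and 87.6 in unstimulated tSema4B cells, which did not overlap but spread widely (log2 0.63 ± 0.28, adjusted p = 0.148). With NE it read 61.8, 64.6 and 40.6 against 85.8, 85.2 and 47.6, with overlap (log2 0.36, adjusted p = 0.397). Atf6 gave log2 0.34 (adjusted p = 0.234) and -0.02 (adjusted p = 0.951).

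In ER-associated degradation, the return of misfolded protein to the cytosol for destruction, Derl1 alone was called between the lines by limma. That is 1 of 6 tested genes lower in each condition (16.7%), against 7.39% and 11.2% of all genes. Derl1 encodes a channel-forming derlin (chr15:57869502-57892448). It read 852, 882 and 879 in unstimulated vector cells and 564, 674 and 678 in unstimulated tSema4B cells, 0.731-fold (log2 -0.45 ± 0.0958, adjusted p = 0.0023). With NE it read 988, 1044 and 896 against 727, 704 and 658, 0.715-fold (-0.48 ± 0.0958, adjusted p = 8.79e-04). The highest tSema4B value, 727, was below the lowest vector value, 852, and both calls were kept in all 18 alternatives. Its paralog Derl2 had means of 186 ± 18.7 and 212 ± 27.2 unstimulated and 195 ± 16.3 and 217 ± 42.9 with NE, with overlap. Herpud1 had means of 329 ± 34.3 and 252 ± 49.6 unstimulated, with overlap, at log2 -0.40 (unadjusted p = 0.0161, adjusted p = 0.0919, limma), and log2 -0.08 with NE. Sel1l, the scaffold of the HRD1 ligase complex, had log2 -0.09 unstimulated and 0.35 with NE (adjusted p = 0.0535), where both count models called it higher. Syvn1, the ligase HRD1 itself, and Edem1, which trims mannose from substrates, were not called.

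The translocon genes had 1 call between the lines, lower with NE (1 of 7, or 14.3%, against 11.2% of all genes). Ssr4, a subunit of the translocon-associated protein complex, read 425, 514 and 494 in the vector line with NE and 350, 370 and 348 in the tSema4B line with NE, 0.747-fold (log2 -0.42 ± 0.118, adjusted p = 0.0132). This call was lost without vector NE replicate 2 (-0.37, adjusted p = 0.0721) or replicate 3 (-0.39, adjusted p = 0.059) and with the same total over all genes (-0.33, adjusted p = 0.054). Unstimulated, 405, 358 and 403 stood against 353, 289 and 352 (log2 -0.23, adjusted p = 0.215). The more abundant subunit Ssr3 lay on the other side, at log2 0.21 in both conditions (adjusted p = 0.0727 and 0.0515), without overlap, and DESeq2 called it higher with NE.

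The second question was which members NE changed within each line. In the vector line, 7 of 36 rose and 1 fell (limma), where 6.82% of all genes tested rose and 4.78% fell and 2.63% passed both thresholds. The members called came to 19.4% higher and 2.78% lower, and the median log2 change of the 36 members was 0.11, against -0.02 for all genes. This median was 0.07 both with the same total over all genes and with quantile normalization, against -0.063 and -0.024 for all genes. In the tSema4B line, 2 rose and none fell, where 3.68% rose and 2.58% fell and 2.07% passed both thresholds. Here 9 of the 36 members had an unadjusted p under 0.05 (limma), against 2387 of all 11998 genes. The count models called 2 members (edgeR) and 3 (DESeq2), against 689 and 842 of all genes. Both NE comparisons had a positive log2 change in most members, 27 and 30 of 36, against 5748 and 5934 of all 11998 genes. The median of the members in the tSema4B line was 0.14, and 0.07 with quantile normalization, against 0.00 for all genes. In the vector line edgeR called 8 members higher and 2 lower and DESeq2 9 and 2. Of all 11998 genes, edgeR called 1574 there and DESeq2 1769, in either direction. Markers moved with NE as well. Of the 8 preadipocyte and fibroblast markers, Pdgfrb, Dlk1, Cd34 and Col1a1 were called lower and Ly6a higher in both lines. Of the 8 adipocyte markers, Fabp4 and Ucp1 were called higher in both lines, Lpl higher in the tSema4B line, and Plin1 and Pparg lower in the vector line. Csf1r was the 1 macrophage marker that could be tested and was called higher in both lines, at a summed macrophage marker level of 0 to 7.6 unstimulated and 9.65 to 24.6 with NE. The part of these shifts in the NE results was not tested.

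Of the chaperones, 3 of 9 rose with NE in the vector line (33.3%, against 6.82% of all genes tested), and 1 to 3 over the alternatives. Manf, a small secreted ER protein that works with BiP (chr9:106838312-106891979), read 253, 240 and 220 unstimulated and 345, 421 and 455 with NE, a 1.7-fold rise (log2 0.77 ± 0.149, adjusted p = 0.00158) and the largest among the members. In tSema4B cells it read 223, 215 and 304 unstimulated and 344, 310 and 267 with NE, with overlap (log2 0.32, adjusted p = 0.229). Manf shares 166 exon bases with 4930524O07Rik on the opposite strand. Hspa5 (chr2:34771970-34777547) rose 1.18-fold, from 2487, 2753 and 2402 to 2964, 2836 and 3196 (log2 0.24 ± 0.0718, adjusted p = 0.0346). In tSema4B cells the values of 2384, 2525 and 2411 against 2874, 2750 and 2808 did not overlap either (log2 0.20, adjusted p = 0.0981). Dnajb11, a J-protein that brings substrates to BiP, rose from 250, 293 and 253 to 378, 345 and 363, or 1.37-fold (0.45 ± 0.128, adjusted p = 0.024), and gave log2 0.23 in the tSema4B line (adjusted p = 0.32).

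These chaperone calls varied in firmness. That of Manf was kept in all 18 alternatives. That of Hspa5 was lost in 9, with log2 from 0.19 to 0.29 and adjusted p up to 0.186, among them the fits without vector unstimulated replicate 1 or 3 or vector NE replicate 1 or 3. Dnajb11 lost its call without each of the same 4 libraries, at adjusted p up to 0.0996. In the tSema4B line none of the 9 was called by limma or edgeR. An unadjusted p under 0.05 (limma) was found for 3, against 2387 of all 11998 genes. DESeq2 called Creld2, a disulfide isomerase, which had log2 0.37 (adjusted p = 0.0567, limma).

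Xbp1 was the regulator called with NE in both lines. It rose from 614, 542 and 528 to 660, 697 and 771 in the vector line, 1.26-fold (log2 0.34 ± 0.107, adjusted p = 0.0436), and from 476, 418 and 429 to 616, 509 and 592 in the tSema4B line, 1.3-fold (0.37 ± 0.107, adjusted p = 0.0385). The NE libraries lay above the unstimulated ones in each line. The call was lost in 10 and 8 of 18 alternatives, with adjusted p up to 0.213 and 0.123. Among these were the fits without any one of vector unstimulated replicates 2 and 3 and the 3 vector NE libraries, and in the tSema4B line without unstimulated replicate 2 or 3 or NE replicate 1 or 3. Atf6 (chr1:170704674-170867771) rose 1.54-fold in the vector line, from 89, 129 and 149 to 189, 205 and 161 (0.62 ± 0.177, adjusted p = 0.0248), and this call was lost without vector unstimulated replicate 1 (0.41, adjusted p = 0.173) or vector NE replicate 1 (0.60, 0.0786) or replicate 2 (0.54, 0.116), and with all libraries thinned to the depth of the shallowest (0.56, 0.0709). In tSema4B cells Atf6 read 145, 149 and 162 unstimulated and 176, 195 and 174 with NE (log2 0.26, adjusted p = 0.459). Ern1 stayed within its spread, at log2 -0.02 and -0.29.

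Herpud1, a membrane protein that helps to assemble the degradation complex (chr8:94386438-94395377), was the member called lower with NE. In the vector line it fell from 363, 329 and 294 to 194, 200 and 217, 0.623-fold (log2 -0.68 ± 0.152, adjusted p = 0.0047), a call kept in all 18 alternatives. In tSema4B cells 257, 299 and 200 stood against 221, 183 and 178, with overlap (log2 -0.36, adjusted p = 0.174). Sel1l, with means of 521 ± 60.4 and 401 ± 16.6 in the vector line, had log2 -0.37 (adjusted p = 0.0595), and both count models called it lower.

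Of the translocon genes, Ssr1, the alpha subunit of the translocon-associated complex (chr13:37966605-37994217), rose in both lines. It went from 966, 985 and 934 to 1209, 1205 and 1206 in the vector line, 1.25-fold (log2 0.33 ± 0.0777, adjusted p = 0.0078). In the tSema4B line it went from 1035, 987 and 1006 to 1335, 1259 and 1394, 1.32-fold (0.40 ± 0.0777, adjusted p = 0.00256). The NE libraries lay above all unstimulated ones, and both calls were kept in all 18 alternatives. Sec61b, the small beta subunit of the channel (chr4:47474658-47483242), rose 1.37-fold in the vector line, from 186, 195 and 223 to 229, 306 and 298 (0.46 ± 0.14, adjusted p = 0.037). That call was lost in 8 of 18 alternatives, including those without vector unstimulated replicate 1 or 2 or vector NE replicate 2 or 3 (adjusted p up to 0.174). In the tSema4B line Sec61b read 234, 227 and 216 against 226, 215 and 203 (log2 -0.07, adjusted p = 0.839). Sec61a1, the channel itself, had log2 0.27 and 0.26 (adjusted p = 0.0603 and 0.0982), without overlap in either line, and both count models called it higher in the vector line. Ssr2, the beta subunit of the translocon-associated complex, had log2 0.22 there (adjusted p = 0.088) and was called higher by DESeq2. On the opposite strand, Sec61a1 shares 549 exon bases with Gm44170 and Ssr2 shares 239 with Gm10704.

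Export and retrieval genes gave no call with NE by limma, edgeR or DESeq2 in either line, with log2 changes from -0.16 to 0.21 in the vector line and from 0.03 to 0.37 in the tSema4B line. An unadjusted p under 0.05 was found for none in the vector line and for Sec23a in the tSema4B line (log2 0.37, adjusted p = 0.0772). The lectin chaperones and isomerases were likewise uncalled by all 3 tools, at -0.08 to 0.16 and 0.01 to 0.18, with an unadjusted p under 0.05 for Calr in the tSema4B line alone. Of all 11998 genes, 2862 had an unadjusted p under 0.05 (limma) in the vector line and 2387 in the tSema4B line.

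**Figure D3:**
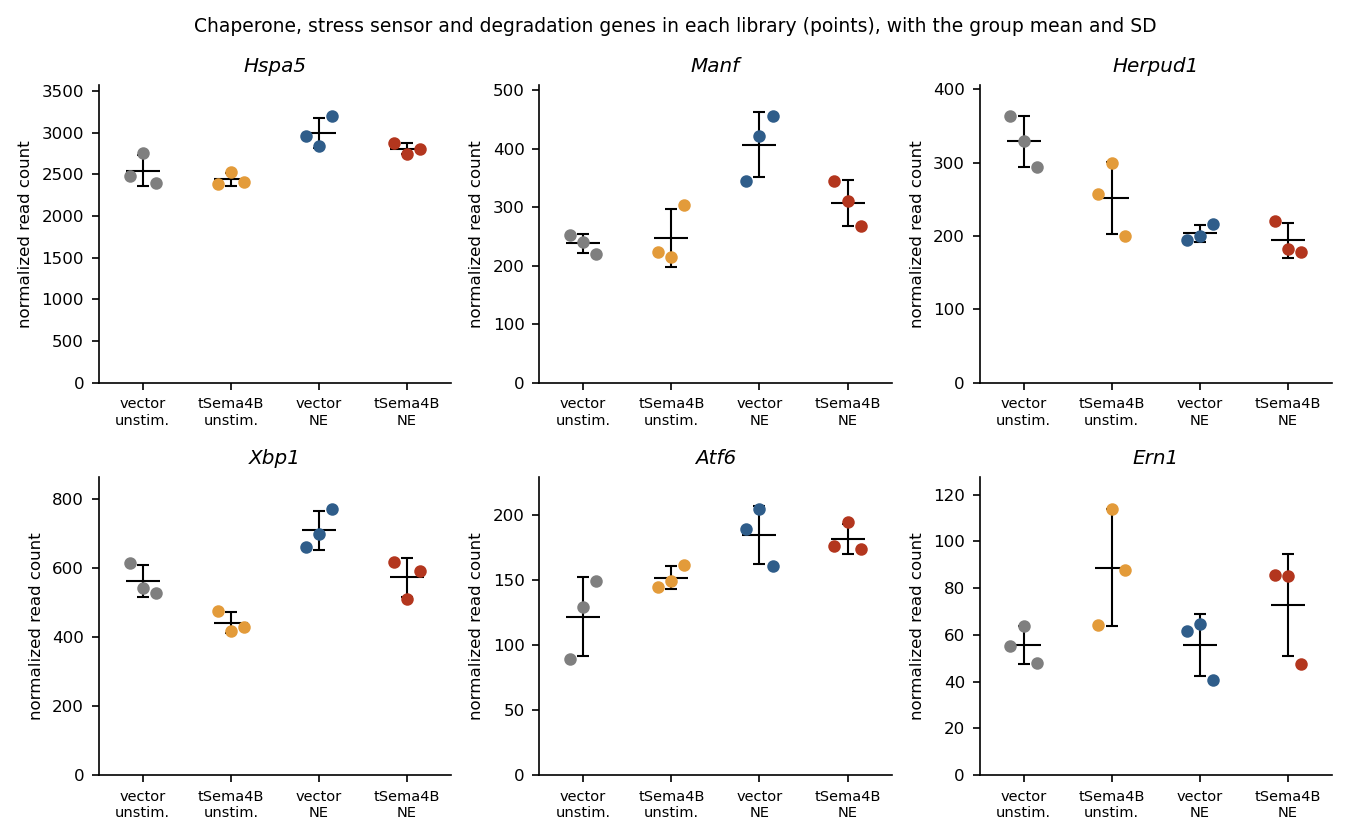
Normalized counts (vertical axes, from 0) of Hspa5, Manf, Herpud1, Xbp1, Atf6 and Ern1 in each of the 12 libraries by group, with bars at the group means. NE libraries of the vector line lie above unstimulated ones for Hspa5, Manf, Xbp1 and Atf6 and below for Herpud1, while Ern1 overlaps.

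Promoters of 4 members with opposite or different responses are shown for their ER stress response elements. The element is CCAAT, any 9 bases and CCACG, and its second form is ATTGG, any base and CCACG. The capitals mark these letters in Hspa5 and Calr (the first form, on the opposite strand in Calr) and in Herpud1 and Dnajb11 (the second form). The windows are chr2:34771945-34772073 (plus strand), chr8:84847045-84847173 (minus), chr8:94386297-94386417 (plus) and chr16:22857772-22857864 (plus), RefSeq GRCm38.p6:
Hspa5: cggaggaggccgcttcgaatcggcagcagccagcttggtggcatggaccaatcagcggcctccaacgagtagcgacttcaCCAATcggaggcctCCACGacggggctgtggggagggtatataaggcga
Calr: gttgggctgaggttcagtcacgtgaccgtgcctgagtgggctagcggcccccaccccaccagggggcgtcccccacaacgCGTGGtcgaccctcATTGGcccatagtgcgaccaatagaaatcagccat
Herpud1: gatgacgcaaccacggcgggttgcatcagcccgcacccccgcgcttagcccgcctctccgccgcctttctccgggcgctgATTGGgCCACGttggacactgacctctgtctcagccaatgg
Dnajb11: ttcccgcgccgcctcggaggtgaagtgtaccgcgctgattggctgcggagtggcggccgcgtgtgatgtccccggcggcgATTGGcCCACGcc

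Of the 37 members, 30 matched a RefSeq promoter by symbol, with 31 windows. The first form was in 9 of 31 windows (Hspa5, Hsp90b1, Calr, Canx, Pdia6, Dnajc3, Creld2, Syvn1 and Derl3), against 39 of 32851 in all (0.119%). Many members are textbook targets of ER stress, so this share is no finding independent of their choice. Of the 8 tested genes among them, limma called 1 between the lines with NE (Calr, higher, where 9.79% of all genes were higher). It called 1 with NE in the vector line (Hspa5, higher, against 6.82%) and none in the other comparisons of groups. There, unadjusted p values under 0.05 were found with NE in the tSema4B line for Hspa5, Calr and Creld2, against 2387 of all 11998 genes. Between the unstimulated lines they were found for none of the 8, against 3137 of all genes. The second form was in 2 windows, those of Herpud1 and Dnajb11, and in 12 windows in all (0.0365%). With NE in the vector line these genes were called in opposite directions. The letters CCACG, which lie in both forms and in TGACGTGG on the other strand, were in 24 of 31 windows (77.4%) against 32.8%. The cAMP response element TGACGTCA was in none of the 31 windows and in 1.79% of all windows.

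The third question was whether the NE response differed between the lines. For all genes the interaction of tSema4B and NE was called in 0.025%, 3 genes, and for 0 of the 36 members by limma, edgeR or DESeq2. Among the 3 was Lpl, which is no member but is in the list of secreted adipocyte proteins below (log2 0.82, adjusted p = 0.00399, limma). An unadjusted p under 0.05 (limma) was found for 5 of the 36 members, Calr, Manf, Sec23a, Sec61b and Sel1l, against 1227 of all 11998 genes. The difference in log2 change, tSema4B minus vector, was -0.45 ± 0.21 for Manf (adjusted p = 0.475), 0.32 ± 0.214 for Herpud1 (adjusted p = 0.658), -0.53 ± 0.198 for Sec61b (adjusted p = 0.342) and 0.04 for Xbp1 (adjusted p = 0.966). It was thus not shown for any of them that the response differs between lines, although 8 members were called in the vector line and 2 in the tSema4B line. Sec23a had 0.53 ± 0.173 (adjusted p = 0.259), and without tSema4B unstimulated replicate 2 it was called (0.72, adjusted p = 0.0388).

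**Figure D4:**
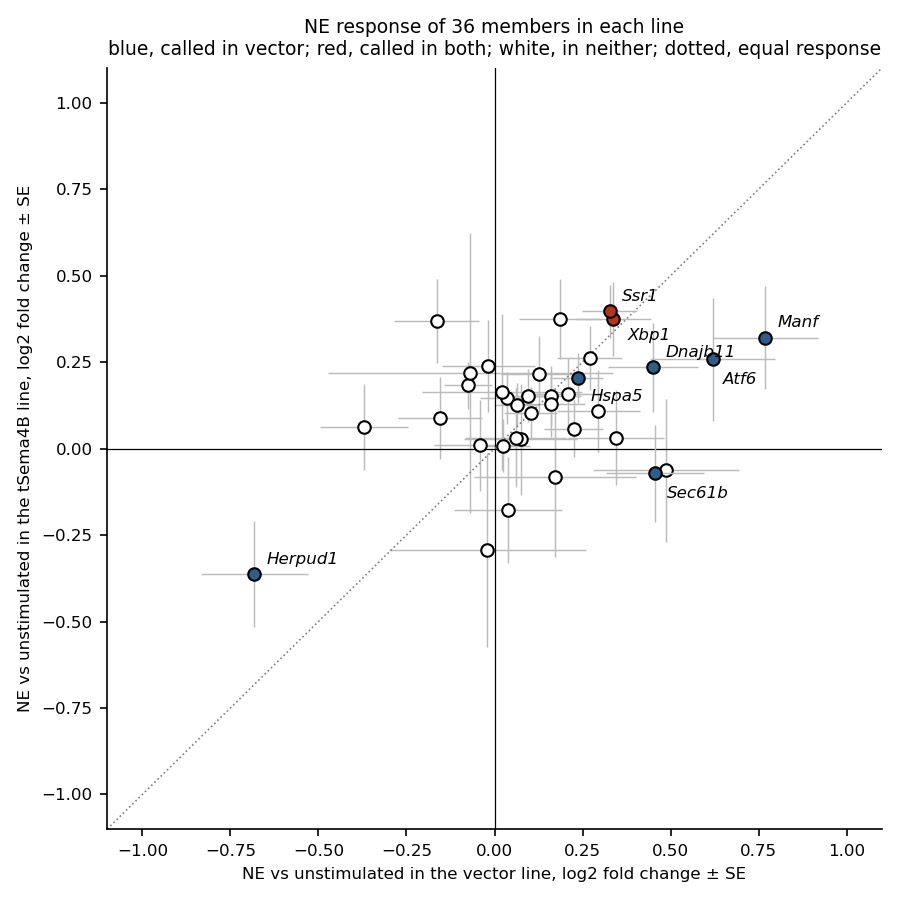
Log2 change with NE in the vector line (horizontal axis) against that in the tSema4B line (vertical axis) for the 36 tested members, from the limma fit. Xbp1 and Ssr1 are called in both lines, and Manf and Herpud1 lie farther from 0 in the vector line, with no difference between lines called.

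The members were then set beside other genes of the same pathway, in lists drawn up with earlier results of these data known. Among 30 other folding factors, 7 were higher in the unstimulated tSema4B line, and 11 were higher and 1 lower with NE, with median log2 differences of 0.24 and 0.18. This was 23.3% higher unstimulated and 36.7% higher and 3.33% lower with NE, against 5.64%, 9.79% and 11.2% of all genes. Named by size were Pdia5, a disulfide isomerase (0.93 and 0.85, adjusted p = 0.00282 and 0.00427), Fkbp10, a prolyl isomerase that acts on collagen (0.55 and 0.73), and Dnajc10, an ER disulfide reductase (0.52 and 0.53). The unstimulated call of Fkbp10 was lost without vector unstimulated replicate 2 or tSema4B unstimulated replicate 3. NE in the vector line raised 2 of the 30, Qsox1 and Ero1l, which make disulfide bonds (0.60 and 0.43), and lowered the collagen chaperone Serpinh1 (-0.30), shares of 6.67% and 3.33% that were near those of all genes, 6.82% and 4.78%. The call of Ero1l was lost without vector unstimulated replicate 2 or vector NE replicate 3, and that of Serpinh1 in 5 of 18 alternatives, among them those without replicate 1 or 3 of either vector group.

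Among 30 other vesicle transport genes, 4 were higher and 3 lower in the unstimulated tSema4B line, and 8 and 3 with NE. The shares were 13.3% and 10% unstimulated and 26.7% and 10% with NE, so that the lower ones were near those of all genes, 7.39% and 11.2%, and the higher ones stood beside 5.64% and 9.79%. Lman1, a lectin cargo receptor, was higher by log2 0.70 and 0.78 (adjusted p = 1.65e-05 and 3.66e-06), and Sec31a, of the outer COPII coat, by 0.55 and 0.75 (adjusted p = 9.20e-04 and 2.67e-05). Tmed5, a cargo receptor of the p24 family, went the other way. Its means were 853 ± 54.9 and 469 ± 24 unstimulated and 2645 ± 235 and 942 ± 94 with NE, in the vector and tSema4B lines (SD, n = 3). It was lower in the tSema4B line by log2 -0.86 and -1.49 (adjusted p = 9.10e-07 and 1.78e-10), and NE raised it by 1.63 and 1.00 (adjusted p = 4.92e-10 and 3.51e-07). Tmed5 shares 395 exon bases with Mtf2 on the opposite strand, and its interaction was -0.63 ± 0.134 (adjusted p = 0.113).

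Of 19 tested genes among 20 others for ER-associated degradation, 1 was higher and 1 lower unstimulated in the tSema4B line and 2 and 1 with NE, shares of 5.26% and 5.26%, then 10.5% and 5.26%, which were near or below those of all genes. Over the alternatives 0 to 1 were higher and 1 to 2 lower unstimulated, and 1 to 5 higher and 0 to 2 lower with NE. The lectin Os9, which reads trimmed glycans, was higher by log2 0.55 and 0.72, the first call being lost without vector unstimulated replicate 1. Ube2g2, the ubiquitin-conjugating enzyme of this pathway, was lower by -1.02 and -0.48, and NE raised it in the tSema4B line by 0.81 (adjusted p = 8.11e-04). The call of -0.48 was lost in 4 of 18 alternatives, namely the same total over all genes and the omission of vector NE replicate 1 or 2 or tSema4B NE replicate 1. Ube2g2 shares 166 exon bases with Gm49325 on the same strand. Of 26 tested genes among 27 for signal peptide removal, N-glycosylation and targeting, 3 were higher unstimulated (11.5%) and 6 with NE (23.1%), with 1 lower (3.85%), against 5.64%, 9.79% and 11.2% of all genes, led by Tram1, which helps chains into the membrane (0.50 unstimulated), and by Tram2, which takes part in collagen synthesis (0.59 with NE, adjusted p = 0.0355, lost in 6 of 18 alternatives).

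Of the PERK branch and other stress regulators, 20 genes, 1 was called higher between the lines unstimulated (5%, against 5.64% of all genes) and 5 were called with NE, 10% higher and 15% lower, against 9.79% and 11.2% of all genes. These shares were near the background. Mbtps1, the protease that activates ATF6, was higher in the unstimulated tSema4B line (log2 0.45). The 2 higher and 3 lower with NE include Chac1, a target of the PERK branch, at -0.88 (adjusted p = 0.0349, lost in 8 of 18 alternatives) and Ppp1r15b, which reverses the PERK signal, at -0.59 (adjusted p = 7.47e-04). Ppp1r15b shares 640 exon bases with Gm26616 on the opposite strand. NE raised Cebpb in the vector line (1.22, adjusted p = 0.00809), 1 of the 20 or 5%, against 6.82% of all genes.

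The cargo genes of the 2 kinds of secretory cell moved in opposite ways between the lines. Of 11 tested genes among 12 for secreted adipocyte proteins, 10 were lower in the tSema4B line in each condition (90.9%, against 7.39% and 11.2% of all genes), at median log2 differences of -2.49 and -2.29. Retn, which encodes resistin, had means of 907 and 91.2 unstimulated and 2034 and 224 with NE (log2 -3.39 and -3.18). Of 16 genes for secreted matrix proteins, 12 were higher in each condition (75%, against 5.64% and 9.79%), at medians of 0.67 and 0.75. Col1a1 had means of 5737 and 11724 unstimulated and 4660 and 9721 with NE (log2 1.03 and 1.06), and Col3a1 had log2 1.07 and 1.18. With NE, 5 matrix genes were lower in the vector line (31.2%, against 4.78% of all genes) and 7 in the tSema4B line (43.8%, against 2.58%), the latter count ranging from 2 to 8 over the alternatives. Of the 11 secreted adipocyte genes, NE raised 3 in the vector line (27.3%, against 6.82%), and in the tSema4B line it raised 5 and lowered 1 (45.5% and 9.09%, against 3.68% and 2.58%), with all of those raised past both thresholds. In the tSema4B line the alternatives gave 4 to 5 raised and 0 to 1 lowered. The haptoglobin gene Hp rose by log2 1.23 and 1.53, Lrg1, a leucine-rich glycoprotein, by 1.67 and 1.84, and Retn by 1.16 and 1.38. Several of these genes also belong to the marker lists above.

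**Figure D5:**
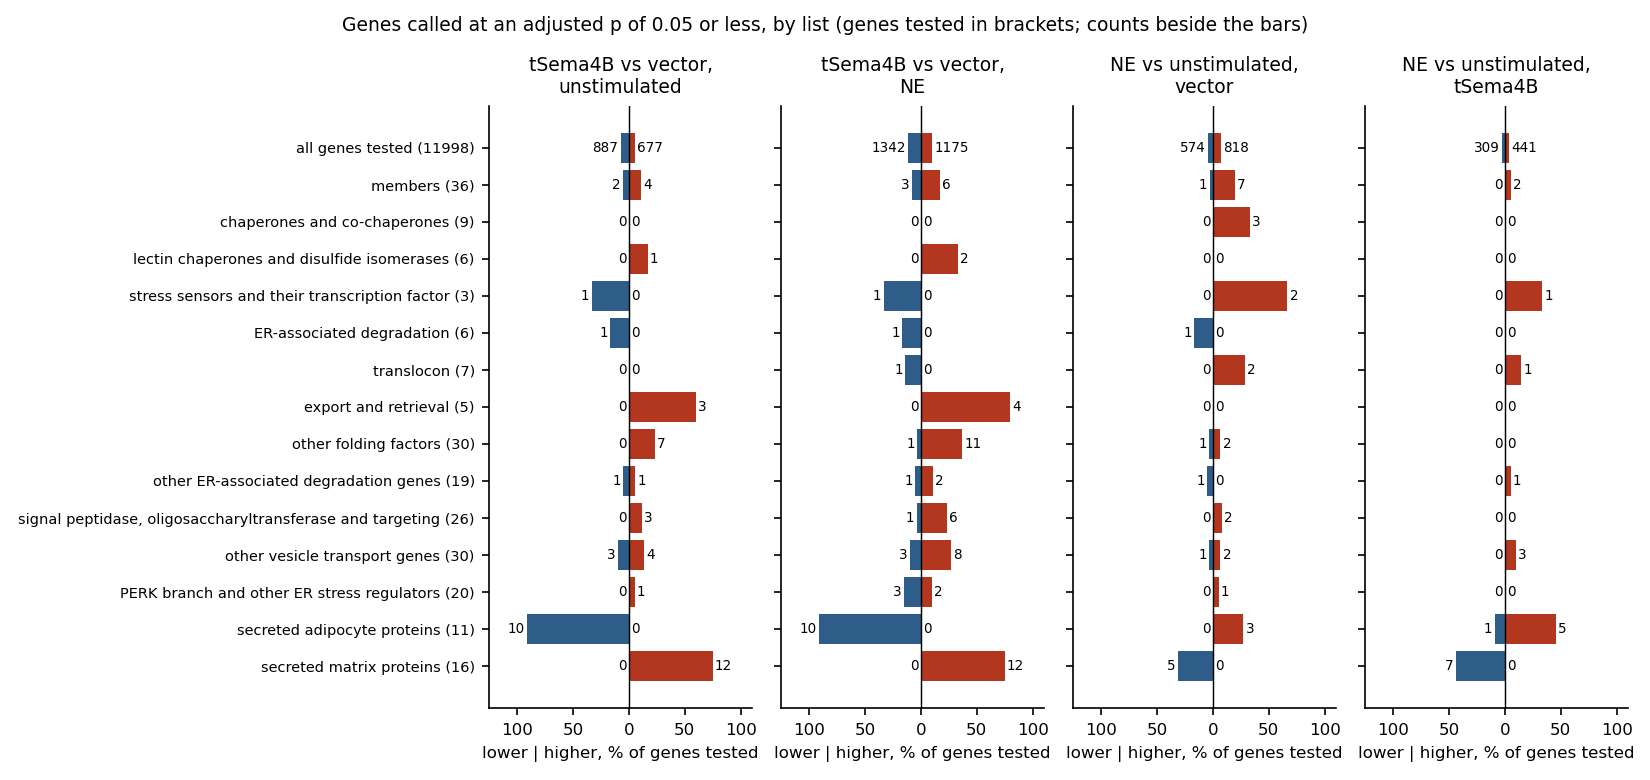
Percent of tested genes called higher or lower (limma) in each of 4 comparisons, for the 6 roles of the members and 7 other lists. Export and retrieval has 60% and 80% of its 5 genes higher in the tSema4B line, against 5.64% and 9.79% of all genes tested. Secreted adipocyte and matrix genes stand at opposite sides.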

How the data were processed

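RNA from 12 libraries was made into full-length cDNA by SMART-Seq2, fragmented with Nextera XT and sequenced from one end. Per the submitters' processing notes and the study's methods, the authors aligned reads with STAR 2.7.9a to mm10 (GRCm38.p4), made gene counts by htseq-count and analysed these with DESeq2. The gene annotation, strand setting and treatment of reads with several matches are not given in the sources used here. The deposited table holds a signal, the count of a gene divided by the size factor of its library, for 48321 genes. Whole reads were recovered from the steps between low values, 100% of values whole within 0.01, and gave the depth of 2000780 to 5409583 reads per library.

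Values were tested as log2(value + 1) with limma 3.58.1 in R 4.3.3 (eBayes with trend, two-sided), in one model of the 4 groups, on the 11998 genes that reached 10 normalized counts in 3 or more of the 12 libraries, with Benjamini-Hochberg adjustment over all of them. Fold changes are on this scale and understate changes of low genes. A fit that leaves out a library has 2 in that group and takes its spread from all groups. Scripts were tested on simulated data. The alternatives were 14 settings (edgeR 4.0.16 and DESeq2 1.42.0 on the whole reads, pseudocounts of 0.5 and 10, other filters, scalings and thresholds, thinned reads, a replicate block and the 6 libraries compared alone) and the omission of each library. The 18 alternatives counted for each call left out those that change the threshold and libraries of groups outside the comparison.

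The members and lists were chosen with earlier results of these data known. Per-library values are given for Hspa5, Xbp1, Ern1 and Atf6, for the 3 called members with the largest change in each comparison and for 1 called member of each role. Those of P4hb, Dnajb11 and Ssr4 were added after their values were seen, as were the motifs TGACGTGG, CCAAT and the second form of the ER stress response element. From the other lists at most 3 called genes per comparison are named. Gene positions and exon lengths are from GENCODE vM21 (GRCm38), promoters from RefSeq (GRCm38.p6), matched by symbol. Exon overlaps with other genes are named for some genes only. One list symbol matched no row, and the protein endings of the members were not analysed here.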

Additional observations from a re-analysis of the deposited data

How the results depend on the processing

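No call of a member reversed its direction under any alternative run. Between the lines unstimulated, 4 members were higher and 2 lower by limma. The higher count was 2 with the same total over nuclear genes, 6 with the same total over all genes and 5 with quantile normalization, and leaving out a library gave 3 to 5. The lower count was 1 with no filter, the same total over all genes, the 6 libraries alone or an adjusted p of 0.01, and 1 to 2 without a library. With NE, 6 were higher and 3 lower. The counts were 11 and 1 with the same total over all genes, 10 higher with DESeq2, 6 lower with the same total over nuclear genes, 1 lower at an adjusted p of 0.01, and 5 to 8 higher and 1 to 5 lower without a library. NE in the vector line raised 7 and lowered 1. It raised 4 with no filter, the same total over all genes, quantile normalization or thinned reads, 2 at an adjusted p of 0.01, 3 to 5 without a library, 8 with edgeR and 9 with DESeq2. It lowered 2 under 8 alternatives and 1 to 2 without a library. NE in the tSema4B line raised 2, and 1 with no filter, quantile normalization, the 6 libraries alone, thinned reads or an adjusted p of 0.01, 3 with DESeq2, the filter at 50 normalized counts or either scaling to the same total, and 1 to 2 without a library. The interaction gave 0 to 1 without a library. All counts were 0 when a change of 1 on the log2 scale was also required. The cause of these shifts, and how far they follow shifts in the calls over all genes, was not tested.

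Libraries with the same number did not deviate together (18 pairs, correlations -0.047 to 0.0282), so the numbers do not pair them. A replicate block gave 4 higher and 2 lower unstimulated, 7 and 3 with NE, 6 and 2 for NE in the vector line and 2 and 0 in the tSema4B line. Depth limits the low genes, Ern1, Sec61g and Sdf2l1, with group means from 32.3 to 100 normalized counts.

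Counts by role and list also moved, here over all alternatives except the 2 stricter thresholds. Export and retrieval had 2 to 4 genes higher in the tSema4B line unstimulated and 3 to 5 with NE, other folding factors 4 to 8 and 6 to 14, other vesicle transport genes 2 to 5 and 5 to 10, and genes of signal peptide removal, glycosylation and targeting 2 to 4 and 3 to 8. With NE in the vector line, chaperones had 1 to 3 genes higher, translocon genes 1 to 4 and the regulators 0 to 2. Matrix genes called lower with NE in the tSema4B line numbered 2 to 8. Calls over all genes moved too. Of all 11998 genes, edgeR called 1534 and DESeq2 1682 between the lines unstimulated, and 2719 and 2849 with NE. For NE in the vector line they called 1574 and 1769, and in the tSema4B line 689 and 842, all in either direction. Counts over all genes under the other alternatives are not given, so movement of a list was not separated from that of all genes. The interaction was called for 3 genes in all by limma, 4 by edgeR and 103 by DESeq2.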
